A study of Homo sapiens with 6 samples.

Results

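The OR2 family of olfactory receptor genes was examined as a group expected to be silent in U-87, an established human glioma cell line, so that the spread of its signals between 2 sets of 3 arrays could be described. Members were the genes whose symbol began with OR2 and a letter, with symbols ending in P left out as pseudogenes, and a gene was kept where a probe set named that gene alone. This gave 51 members among the 18417 genes measured, and where a gene had several probe sets the brightest over the 6 arrays was kept. A further 14 OR2 genes were named on probe sets shared between genes and are not among the 51. The 6 arrays carried total RNA of U-87 cultures labelled P68 knockdown (3 arrays) or P68 wild type (3 arrays). The labels' treatment note names an siRNA against P68, the RNA helicase encoded by DDX5, or a reagent abbreviated NC, and does not say which of these the wild-type cultures received. Nothing in the labels tells if replicate arrays were grown as separate cultures, so each p-value measures how far these arrays spread, and that spread may be technical. The signal of each member is a log2 value made by the authors with RMA, which equalises the arrays. Detection calls were not consulted, and background and weak expression look alike at low signal. OR2T8 was chosen by its measured difference between these groups and the probe set of each gene by its mean signal, so the values of OR2T8 are a description and carry no test.

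Olfactory receptors are G protein-coupled receptors of the odour-sensing neurons of the nose. Each such neuron is known from mouse to express a single receptor gene from a single allele, while the remaining receptor genes are held in closed chromatin. The genes sit in clusters along the chromosomes, many have a coding region within a single exon, and neighbours in a cluster are often close copies. Outside the nose most of them are silent, although transcripts of some have been found in other tissues.

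The kept members gave signals between 2.14 for OR2M2 and 5.33 for OR2Z1 as means over the 6 arrays, with a median of 3.50. Of the 51, 44 lay among the dimmest 40% of genes, which ended at 4.28, and 49 lay below the median gene. After OR2Z1 the highest means were those of OR2H2 at 4.91, OR2AT4 at 4.61, OR2C1 at 4.56 and OR2S2 at 4.46, and above OR2M2 the lowest were OR2B2 at 2.48, OR2M7 and OR2J3 at 2.56 and OR2L2 at 2.60. Each probe set binds with its own strength, so these signals are not an order of expression. The brightest, OR2Z1, gave 5.22, 5.43 and 5.21 in the knockdown, against 5.49, 5.22 and 5.39 in the wild type. The dimmest, OR2M2, gave 2.23, 2.00 and 2.17 against 2.17, 1.99 and 2.30 in the wild type, and the groups of both genes overlapped.

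OR2T8, a receptor gene of the cluster at the end of chromosome 1, had signals of 4.29, 4.72 and 4.58 in the knockdown (replicates 1 to 3), against 3.42, 3.36 and 3.75 in the wild type. The lowest knockdown array was 0.54 above the highest wild-type array, so the groups did not overlap. The knockdown mean was 4.53 ± 0.22 and the wild-type mean 3.51 ± 0.21 (SD, n = 3 arrays each). The knockdown minus wild type was 1.02 ± 0.14 (SE) in log2, so the knockdown signal was 203% of that of the wild type. In RNA from a whole culture, more cells with a transcript and more RNA per cell cannot be told apart. The SD of OR2T8 between replicate arrays, 0.215, was not among the extremes of the family, since 15 members had a larger SD. DDX5, the targeted gene, was lowest in knockdown replicate 1, at 9.47 beside 9.79 and 9.91 in the other knockdown arrays. OR2T8 was also lowest there among the knockdown arrays.

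**Figure D1:**
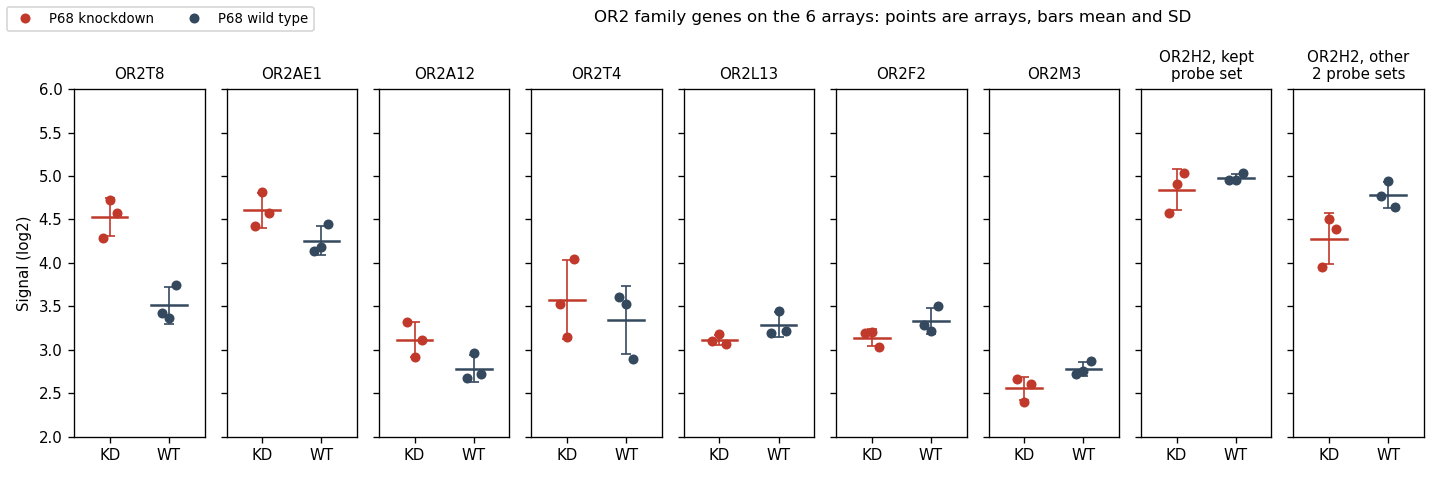
Signals (log2, vertical axis) of 8 OR2 family genes, 1 of them with a second kind of probe set, on the 6 arrays, knockdown (KD) left of wild type (WT) in each panel; points are arrays, long bars are means and thin bars the SD (n = 3). The 3 knockdown points of OR2T8 lie between 4.29 and 4.72, above its wild-type points at 3.36 to 3.75, while the groups of the other genes lie within 0.06 of each other or overlap, apart from the 2 OR2H2 probe sets that were not kept.

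The other 50 members spread around 0. Their log2 differences between knockdown and wild type ran from -0.23 for OR2M3 to 0.35 for OR2AE1, with a mean of 0.03 and an SD of 0.152. The quartiles were -0.08 and 0.14. With OR2T8 included the SD was 0.205 and the median 0.003, with 26 members above 0, 24 below and OR2Y1 at 0, where 52.5% of all genes lay above 0. OR2T8 stood 0.67 above the next member and 6.52 of these SDs from the mean of the other 50. This distance describes the family and is not a test, since the largest difference had been picked. The difference of OR2T8, 1.02, was also the highest over all 18417 genes, but not the largest in size. ADCY10P1, another dim gene, differed by -1.19. It gave 2.17, 2.20 and 2.81 in the knockdown, against 2.99, 4.79 and 2.96 in the wild type.

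**Figure D2:**
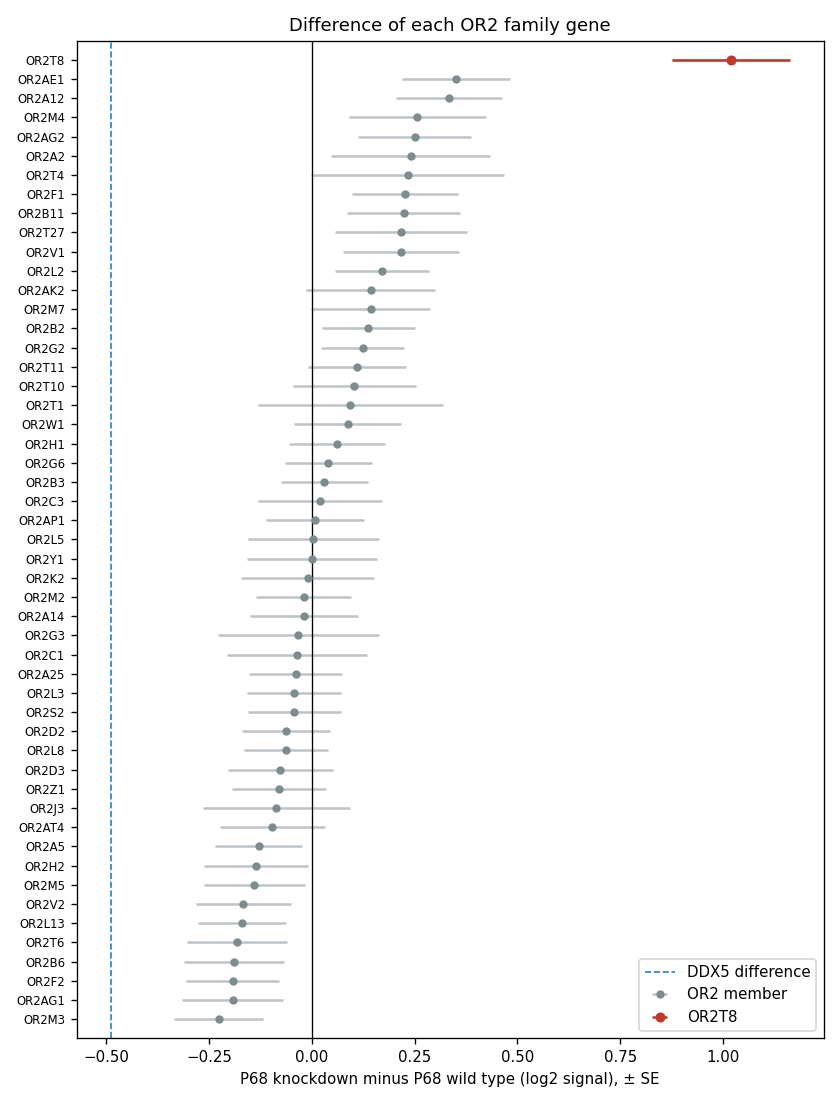
Difference between knockdown and wild type (log2 signal, horizontal axis) of each of the 51 OR2 genes, ordered by size, with the SE as bars; the dashed line marks the difference of DDX5. OR2T8 lies at 1.02 and the other 50 genes between -0.23 and 0.35.

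The sequence before the annotated start is shown for OR2T8, for the next highest member OR2AE1 and for the lowest, OR2M3, so that the extremes of the family can be compared. Each is the 250 bases before the RefSeq start in GRCh38.p14, 5′ to 3′ on the gene's strand, with capitals for TAATTA, the core bound by homeodomain factors, and for TATAAA on either strand (TTTATA where it lies on the other strand).
OR2T8: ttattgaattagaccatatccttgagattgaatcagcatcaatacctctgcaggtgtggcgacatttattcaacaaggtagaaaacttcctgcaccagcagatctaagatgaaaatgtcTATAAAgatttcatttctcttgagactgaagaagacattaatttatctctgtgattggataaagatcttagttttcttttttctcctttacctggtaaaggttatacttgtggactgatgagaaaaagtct
OR2AE1: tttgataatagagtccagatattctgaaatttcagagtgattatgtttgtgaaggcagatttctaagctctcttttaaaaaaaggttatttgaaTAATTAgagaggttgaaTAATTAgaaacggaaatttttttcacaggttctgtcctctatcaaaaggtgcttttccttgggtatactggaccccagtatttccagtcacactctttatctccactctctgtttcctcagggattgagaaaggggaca
OR2M3: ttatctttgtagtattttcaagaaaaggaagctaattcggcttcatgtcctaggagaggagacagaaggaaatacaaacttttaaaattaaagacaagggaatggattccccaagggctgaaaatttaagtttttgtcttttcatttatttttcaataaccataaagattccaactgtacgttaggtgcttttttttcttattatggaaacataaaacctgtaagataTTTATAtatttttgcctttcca
They lie at chr1:247920002-247920251 (plus strand), chr7:99877034-99877283 (minus strand) and chr1:248197015-248197264 (plus strand). The window of OR2T8 held 1 TATAAA and 0 TAATTA, that of OR2AE1 2 TAATTA and 0 TATAAA, and that of OR2M3 1 TATAAA and 0 TAATTA, so neither motif was on both high members. Their GC contents were 34.4%, 36% and 30.4%, and they held 1, 1 and 2 CpG.

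Windows of this kind were listed for 42 of the 51 members. Their median GC content was 37.2%, equal to that of 233 windows of the other receptor families and below the 58% of 27305 windows of all genes. The median number of CpG was 1 in the members, 1 in the other families and 11 in all genes. TAATTA, which reads the same on both strands, was in 8 of the 42 members (19.0%), 20.6% of the other families and 4.49% of all windows. TATAAA on either strand was in 10 of the 42 (23.8%), 30.0% of the other families and 11.1% of all windows. A match is only a match of letters, and overlaps between the motifs were not removed. For 14 of the 51 members, OR2AE1 among them, the reference span is under 1000 bases and a multiple of 3, so the start may be that of the coding region and not of the transcript.

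The spread of the members was set beside their replicate error. The SDs between replicate arrays of the 50, taken as a root mean square, correspond to an SE of 0.167 for a difference between 3 arrays and 3, beside the observed SD of 0.152. Over all genes the 2 values were 0.142 and 0.144. For each of the 50 the larger of the 2 within-group ranges exceeded the difference between the group means, as it did for 95.1% of all genes. For OR2T8 the ranges were 0.43 among knockdown arrays and 0.39 among wild-type arrays, both under its difference of 1.02. The largest SDs between replicates were those of OR2T4 (0.424), OR2T1 (0.404) and OR2G3 (0.342), and the smallest those of OR2G2 (0.080), OR2L8 (0.090) and OR2A5 (0.099). OR2T4 gave 3.53, 3.15 and 4.05 in the knockdown, against 3.61, 3.53 and 2.89 in the wild type, so arrays of the same group differed by up to 0.90. In OR2T1, 1 array stood apart, with 3.76, 3.97 and 3.69 in the knockdown against 4.35, 3.36 and 3.43 in the wild type. The SD of a member showed little relation to its mean signal (Pearson r = 0.06 across the 51 genes, which share the arrays and are not independent).

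No member passed an adjusted p of 0.05 in limma fitted over all 18417 genes, and neither did any other gene (0% of all genes, against 937 genes at an unadjusted p under 0.05). An unadjusted p under 0.05 was found for 3 of the 51 members, beside 5.09% of all genes. These were OR2T8, for which this only restates the choice, and OR2AE1 and OR2A12. All 3 were higher in the knockdown (3.02% of all genes) and 0 were lower (2.06% of all genes). The groups did not overlap for 4 members, beside 10.1% of all genes. These were OR2T8, higher in the knockdown (5.98% of all genes), and OR2M3, OR2F2 and OR2L13, lower in it (4.15% of all genes). A log2 difference of at least 0.25 in size was reached by 5 members, OR2T8, OR2AE1, OR2A12, OR2M4 and OR2AG2, beside 8.1% of all genes. Of the 50 members other than OR2T8, 4% had an unadjusted p under 0.05, 6% had separate groups and 8% reached 0.25, so these shares were near or below those of all genes.

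Among the members nearest to OR2T8 in difference, OR2AE1 gave 4.42, 4.82 and 4.58 in the knockdown, against 4.14, 4.18 and 4.45 in the wild type. The knockdown mean was 4.61 ± 0.20 and the wild-type mean 4.26 ± 0.17 (SD, n = 3 arrays each). They differed by 0.35 ± 0.13 (SE) in log2, and limma gave an adjusted p of 0.902. The groups overlapped through wild-type replicate 3. OR2A12 gave 3.32, 2.92 and 3.11 in the knockdown, against 2.67, 2.96 and 2.72 in the wild type, a log2 difference of 0.33 ± 0.13 (SE). Here wild-type replicate 2 lay above knockdown replicate 2. OR2M4 gave a difference of 0.26 ± 0.17 (SE), where wild-type replicate 2 gave 3.72 and the remaining 5 arrays 4.24 to 4.47. OR2AG2 gave 0.25 ± 0.14 (SE) with knockdown replicate 2 at 4.08 and the other 5 arrays between 3.48 and 3.68, so in both genes a single array stood apart.

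At the other end, OR2M3 gave 2.66, 2.40 and 2.60 in the knockdown, against 2.72, 2.75 and 2.87 in the wild type, a log2 difference of -0.23 ± 0.11 (SE). OR2F2 gave 3.19, 3.20 and 3.03 against 3.29, 3.21 and 3.50 in the wild type, and the groups were 0.01 apart at their nearest arrays. OR2L13 gave 3.10, 3.18 and 3.07 in the knockdown, against 3.19, 3.45 and 3.22 in the wild type. Among the 50, the widest gap between groups that did not overlap was 0.06, that of OR2M3, beside 0.54 for OR2T8. OR2AG1 at -0.19 ± 0.12 (SE) and OR2B6 at -0.19 ± 0.12 (SE) completed the low end with groups that overlapped.

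The members most like OR2T8 over the 6 arrays were OR2AE1 (Pearson r = 0.918), OR2G2 (r = 0.723) and OR2V1 (r = 0.708). OR2G2 gave 4.13, 4.27 and 4.16 in the knockdown, and wild-type replicate 1 at 4.16 lay among them. OR2V1 gave 4.11, 4.54 and 4.46 in the knockdown, against 4.30, 3.93 and 4.23 in wild-type cells. Replicate 1 of the knockdown was thus the array that made the groups of OR2V1 overlap. These correlations describe 6 arrays and take in the group difference by which OR2T8 was chosen. OR2M3 was the most opposed (r = -0.782).

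The 51 members fell into 22 subfamilies, named by the letters after the 2, of which 10 had a single member. OR2T was the largest with 7 members. Without OR2T8 the 6 others of OR2T had a median difference of 0.11 and ran from -0.18 for OR2T6 to 0.23 for OR2T4, and 5 of them lay above 0. OR2T27 gave 3.15, 3.57 and 3.32 in the knockdown, against 3.42, 3.15 and 2.82 in the wild type, a difference of 0.22 with groups that overlapped. OR2T6 gave 2.73, 2.75 and 2.94 against 2.93, 2.84 and 3.20 in the wild type. OR2T11 gave 0.11, OR2T10 0.10 and OR2T1 0.09, and the groups of all 6 overlapped. The 5 members of OR2A ran from -0.13 for OR2A5 to 0.33 for OR2A12, the 5 of OR2L from -0.17 for OR2L13 to 0.17 for OR2L2, and the 5 of OR2M from -0.23 for OR2M3 to 0.26 for OR2M4. In each of these subfamilies 2 members lay above 0 and 3 below, so close relatives were found on both sides.

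By chromosome, 23 members lay on chromosome 1, 8 on chromosome 7, 7 on chromosome 6, 5 on chromosome 11, 3 on chromosome 5 and the rest on chromosomes 9, 12, 16 and 19. The members of chromosome 1 had a median difference of 0.09, with 15 above 0 and 8 below. Among the protein-coding neighbours of OR2T8 in the reference order, the nearest measured on their own were OR11L1 on one side and OR2L13 on the other. OR11L1, a receptor gene of another family, gave 4.92, 4.78 and 4.74 in the knockdown, against 4.88, 4.79 and 4.67 in the wild type, a log2 difference of 0.03 ± 0.11 (SE). Beyond OR11L1, OR14A16 gave 3.46, 2.91 and 3.07 in the knockdown, against 2.67, 2.94 and 2.88 in the wild type, with 0.32 ± 0.15 (SE) between the overlapping groups. OR2L13 lay at -0.17, and beyond it OR2L8 gave -0.06 and OR2AK2 0.14. Within 4 genes of OR2T8 on each side the measured genes thus lay on both sides of 0. OR2W3, TRIM58 and OR2AJ1, which lie between these neighbours, had no probe set of their own here.

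Which probe set stands for a gene mattered for OR2H2. OR2B3, OR2W1 and OR2H2, all on chromosome 6, had 3 probe sets each. Those of OR2B3 held identical values on the 6 arrays, and so did those of OR2W1, so the extra probe sets are no independent reading. The kept probe set of OR2H2 gave 4.58, 4.91 and 5.04 in the knockdown, against 4.96, 4.95 and 5.03 in the wild type, a log2 difference of -0.14 ± 0.13 (SE). The other 2 probe sets of OR2H2, identical to each other, gave 3.95, 4.50 and 4.39 in the knockdown, against 4.77, 4.94 and 4.64 in the wild type, so their groups did not overlap. Their knockdown signal was 70.5% of that of the wild type (log2 difference -0.50 ± 0.15, SE), and limma gave an adjusted p of 0.902 when each probe set was tested on its own. Knockdown replicate 1 was the lowest array in all 3 probe sets of OR2H2, and what sets them apart was not tested.

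Probe sets that name several genes were not assigned to any of them. Of 22 such probe sets that name an OR2 gene, 19 held distinct values. Of these 19, 15 had a difference above 0, where 52.5% of all genes did, and the 22 ran from -0.16 to 0.29. A pair of them is annotated jointly to OR2T33, OR2T8 and OR2T12. The first gave 5.09, 5.39 and 5.22 in the knockdown, against 5.11, 5.06 and 5.19 in the wild type, a difference of 0.11. The other gave 5.20, 5.47 and 5.23 in the knockdown, against 5.09, 5.05 and 5.13 in the wild type, a difference of 0.21 with groups that did not overlap. Neither came near the difference of 1.02 of the probe set that names OR2T8 alone.

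The family level hardly moved between the arrays. The median signal of the 51 members was 3.43, 3.41 and 3.43 in the knockdown, against 3.47, 3.45 and 3.50 in the wild type. All 3 knockdown medians lay below all 3 wild-type medians, although 26 of the 51 members had a difference above 0. Knockdown replicate 2 alone held the highest of the 6 values for 15 members, and each of the other 5 arrays did so for 5 to 9. The median difference of 0.003 lay between -0.005 and 0.035 with single arrays left out. With all arrays kept, it was -0.011 with cyclic loess and -0.013 with quantile normalisation run again. Its sign thus rests on single arrays and on the normalisation. Over all genes the median difference was 0.01.

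The SD of 0.152 over the 50 OR2 differences was set beside that of other genes. The 290 measured genes of the other olfactory receptor families had an SD of 0.158, a range of -0.40 to 0.57 and a median of 0.04. The 7368 genes of the dimmest 40% had an SD of 0.143 and all genes one of 0.144. The central 95% of differences ran from -0.19 to 0.32 for the 50 OR2 members, from -0.24 to 0.37 for the other receptor families, from -0.26 to 0.30 for the dimmest 40% and from -0.27 to 0.29 for all genes. Among the other families 184 genes lay above 0 and 105 below, where 52.5% of all genes lay above 0. An unadjusted p under 0.05 was found for 24 of the 290 (8.28%), beside 5.09% of all genes, and 20 of the 24 were higher in the knockdown, the direction of 3.02% of all genes. OR51D1 differed most, with 3.50, 4.32 and 3.20 in the knockdown against 3.29, 2.75 and 3.26 in the wild type, and its highest array was knockdown replicate 2 and its lowest wild-type replicate 2. OR4D1 gave 4.39, 4.21 and 3.72 in the knockdown, against 3.43, 3.53 and 3.83 in the wild type. The brightest of the other families, OR3A3, differed by 0.003.

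**Figure D3:**
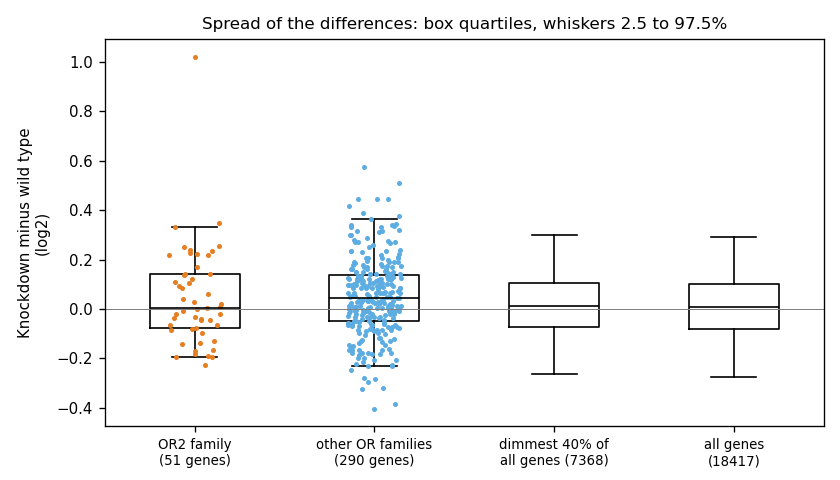
Difference between knockdown and wild type (log2, vertical axis) in the OR2 family, the other olfactory receptor families, the dimmest 40% of genes and all genes; boxes span the quartiles, whiskers the central 95%, and points are single genes of the first pair of groups. The OR2 box spans -0.08 to 0.14 and that of all genes -0.08 to 0.10, and OR2T8 at 1.02 lies above all points of both receptor groups.

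The family also gives a scale for the target gene. DDX5 had signals of 9.47, 9.79 and 9.91 in the knockdown, against 10.09, 10.25 and 10.30 in the wild type, a log2 difference of -0.49 ± 0.13 (SE). With the kept probe sets, OR2T8 alone of the 51 members had a difference at least as large in size. The 2 OR2H2 probe sets not kept, at -0.50, also reached it. In the other receptor families 2 of 290 genes did, and 0.342% of all genes did (63, DDX5 included). The largest difference among the other 50 members, 0.35 for OR2AE1, compares with 0.39 ± 0.10 (SE) for DUSP5, the ERK phosphatase of the study's title. DUSP5 gave 5.78, 5.80 and 5.62 in the knockdown, against 5.44, 5.32 and 5.28 in the wild type. Its groups were separate, beside 10.1% of all genes, and limma gave an adjusted p of 0.902. The replicate SD was 0.091 for DUSP5 and 0.186 for OR2AE1, whose groups overlapped. DDX5 was far brighter than any member, and its replicate SD of 0.179 was close to the members' median of 0.173.

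**Figure D4:**
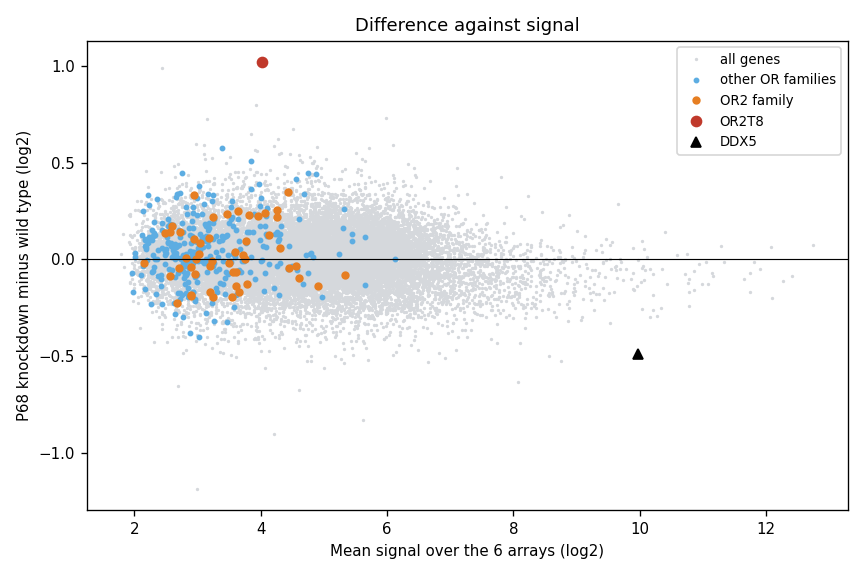
Difference between knockdown and wild type (log2, vertical axis) against the mean signal over the 6 arrays (log2, horizontal axis) for 18417 genes, with OR2 members, other receptor families, OR2T8 and DDX5 marked. The OR2 members lie between signals of 2.14 and 5.33 within the cloud of all genes, except OR2T8 at its upper edge.

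Genes that olfactory receptors work with were read from lists. In the nose a bound receptor acts through the G protein subunit GNAL and the cyclase ADCY3 on cyclic nucleotide-gated channels. Of 18 measured genes of this signalling path 8 lay above 0 and 9 below, with a median of -0.008, and 1 (5.56%) had an unadjusted p under 0.05, beside 5.09% of all genes. This was the channel subunit CNGA4, with 4.25, 3.97 and 3.72 in the knockdown against 4.44, 4.18 and 4.33 in the wild type, and limma gave -0.34 ± 0.14 (SE) and an adjusted p of 0.902. STOML3, a membrane protein of olfactory neurons, gave 2.99, 2.96 and 2.72 in the knockdown, against 3.00, 3.08 and 3.33 in the wild type. The brightest of the list, the G protein subunit GNB1, differed by -0.02, and ADCY3 gave 0.24 ± 0.15 (SE). Of 8 chaperones that carry receptors to the surface 2 lay above 0 and 6 below (median -0.06). Of 17 regulators of receptor gene choice and silencing 7 lay above 0 and 10 below (median -0.07). TRIM28, a silencing cofactor of zinc-finger proteins, gave 6.93, 6.52 and 6.64 in the knockdown, against 7.15, 6.97 and 6.99 in the wild type, and limma gave -0.34 ± 0.12 (SE) and an adjusted p of 0.902. EHMT1, a histone methyltransferase of closed chromatin, gave -0.21 ± 0.12 (SE). LHX2, a homeodomain factor that acts on receptor genes in mouse, gave -0.17 ± 0.10 (SE), with separate groups. ATF5, a transcription factor of the stress response that follows receptor choice in mouse, gave 0.18 ± 0.10 (SE) with groups separate in the other direction. With TRIM28, 3 of the 17 had separate groups, beside 10.1% of all genes. TRIM28 alone of the 17 had an unadjusted p under 0.05 in limma, beside 5.09% of all genes. The brightest of the list, LDB1, a cofactor of LHX2, differed by -0.12. No gene of the 3 lists had an adjusted p under 0.05 in limma.

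The likeness of the arrays and the markers of cell types were read from the same values. The marker values do not test the cell label, since probe sets bind with different strength and a difference between groups does not name a cell. Over the probe sets with a single gene symbol, pairs of arrays correlated with r = 0.978 to 0.991. The lowest r was within the knockdown (replicates 1 and 2), and the highest was between groups (replicate 3 of each). Of 10 glioma and glial markers, 7 lay above 0 and 3 below, and 5 were among the dimmest 40% of genes. AQP4, a water channel of astrocytes, differed most, with 2.93, 3.22 and 3.09 in the knockdown against 2.70, 2.80 and 2.64 in the wild type. These groups were separate (0.37 ± 0.11, SE), with an adjusted p of 0.902 in limma. Of the 10 markers, 1 had an unadjusted p under 0.05 in limma, beside 5.09% of all genes. Separate groups were found for 2 of the 10, beside 10.1% of all genes. These were AQP4, higher in the knockdown, and SLC1A3, lower in it (-0.17). VIM gave 7.94, 7.25 and 7.30 in the knockdown, against 7.87, 7.62 and 7.60 in the wild type. CD44, a surface marker usually high in this line, was dim, with 3.48, 3.80 and 3.51 in the knockdown against 3.57, 3.62 and 3.56 in the wild type. OMP, the marker of mature olfactory neurons, gave 6.09, 6.02 and 6.17 against 6.17, 6.14 and 6.15 in the wild type, and the channel subunit CNGA2 differed by -0.09. Of 13 olfactory neuron markers 7 lay above 0 and 6 below, and 6 were among the dimmest 40%. Above 0 were 3 of 4 neuron markers (STMN2 at 0.32, SYT1 at 0.20, RBFOX3, the brightest, at 0.18), 3 of 3 oligodendrocyte markers (MBP at 0.10, MOG at 0.07, OLIG2 at 0.04), 3 of 4 microglia markers (P2RY12 and the brightest, CSF1R, at 0.08) and 2 of 3 endothelial markers (PECAM1 at 0.09, VWF at 0.05, with CDH5 at -0.07). Below 0 were also SNAP25 at -0.09 and AIF1 at -0.01. STMN2 alone of these 14 markers had an unadjusted p under 0.05 in limma, beside 5.09% of all genes. The groups of STMN2, SYT1 and P2RY12 were separate, beside 10.1% of all genes.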

How the data were processed

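The deposited table holds log2 signals that the authors made with RMA, per the submitters' processing notes; no source used here gives the RMA software, its version or a genome build. RMA corrects the background, equalises the arrays and summarises the probes of a probe set. Of 29096 probe sets, 19460 had 1 gene symbol, 1754 several and 7882 none, and the brightest probe set over the 6 arrays stood for each of 18417 genes. Knockdown and wild type were compared with limma 3.58.1 in R 4.3.3 (lmFit and eBayes, two-sided, group as the term, Benjamini-Hochberg over all genes, threshold 0.05); each adjusted p comes from this fit, except that of the OR2H2 probe sets not kept, which comes from a fit of each probe set on its own. The number of arrays limits the precision. The fit was tested on simulated data in which the added change was larger than any difference measured here. It therefore does not show how well differences of the sizes reported here are found.

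The members and lists were chosen with earlier results of these data known. Named were OR2T8, the OR2T subfamily, the 4 highest and 4 lowest differences, the 5 brightest and 5 dimmest members, the 3 largest and 3 smallest replicate SDs, members with separate groups or an unadjusted p under 0.05, members with several probe sets, the 3 most like OR2T8, its neighbours, and of each list the 2 largest differences and the brightest gene. OR2AG2, OR2Y1, OR2AK2, OR14A16, ADCY10P1, DUSP5, ADCY3, LHX2, ATF5, CD44, CNGA2, SLC1A3, SNAP25 and AIF1 were named after their values were seen. The alternatives were cyclic loess, centring, quantile normalisation run again, a filter removing the dimmest 40% of genes, other handling of probe sets, an intensity trend, array weights, a replicate block and leaving out each array. Promoter windows and gene order come from RefSeq (GRCh38.p14). The protein sequences of the receptors were not used here.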

Additional observations from a re-analysis of the deposited data

How the results depend on the processing

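The difference of OR2T8 lay between 0.925 (without knockdown replicate 2) and 1.14 (without knockdown replicate 1 or wild-type replicate 3), and OR2T8 ranked 1 among the members by size in each of the 14 alternatives that kept it; leaving out the dimmest 40% of genes removed it and left 7 members. No member passed the adjusted threshold of limma in any of the 15 alternatives. The SD over the other 50 members, looked at after seeing the data, ran from 0.152 to 0.196, and their largest difference in size from 0.332 to 0.503, which is that of the 2 OR2H2 probe sets not kept. With single arrays left out, OR2F2 lay between -0.255 and -0.11 and OR2L13 between -0.218 and -0.088. Unadjusted calls numbered 3 (5.09% of all genes), against 5 with array weights (5.98% of all genes), 5 of 57 with every probe set on its own (5.08%), 1 of 7 without the dimmest genes (5.13%) and 2 to 6 with single arrays left out (2.95% to 7.35%), 6 being reached without knockdown replicate 1 (7.35%) or wild-type replicate 1 (6.21%). Members with separate groups numbered 4, against 0 of 7 without the dimmest genes and 7 to 11 with single arrays left out, where fewer arrays make separation easier and 16.8% to 23.3% of all genes are separate. The median difference was 0.003, against -0.043 without the dimmest genes, and -0.005 to 0.035 with single arrays left out. It was -0.011 with cyclic loess, -0.01 with centring, -0.013 with quantile normalisation run again and -0.006 with array weights. The cause was not tested. With the replicate number as a block, 3 members had an unadjusted p under 0.05, beside 6.24% of all genes. Same-numbered arrays deviated together for numbers 1 and 3 (r = 0.268 and 0.125) but not 2 (r = -0.027). Between different numbers r ran from -0.251 (knockdown 3, wild type 1) to 0.170 (knockdown 3, wild type 2). The numbers were therefore not taken to pair the arrays. Signal over background limits all members, since most are dim.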

Other observations

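Other genes of restricted expression were read beside the receptors, as values with no test of the lists. Of 24 bitter taste receptors, 13 had a difference above 0 and 9 below, with a median of 0.025 and an SD of 0.140. TAS2R41 gave 4.59, 4.84 and 4.51 in the knockdown, against 4.18, 4.41 and 3.92 in the wild type. TAS2R3 gave 3.36, 3.33 and 3.36 against 3.54, 3.50 and 3.68 in the wild type, so the pair was separate in opposite directions. Separate groups were found for 3 of the 24 taste receptors (12.5%), beside 10.1% of all genes. The brightest, TAS2R38, differed by -0.19. Of 67 keratin-associated protein genes, components of hair, 47 lay above 0 and 19 below, with a median of 0.09 and an SD of 0.179. KRTAP10-9 gave 6.02, 5.93 and 5.60 in the knockdown, against 6.54, 6.36 and 6.14 in the wild type, while KRTAP10-7 gave 5.03, 5.09 and 4.86 against 4.76, 4.31 and 4.58 in the wild type, and the brightest, KRTAP5-3, differed by 0.33. Of 11 trace amine and vomeronasal receptors, 6 lay above 0 and 5 below (median 0.003), with TAAR8 at 0.22, TAAR6 at 0.16 and the brightest, VN1R4, at -0.04. Of 11 genes restricted to other tissues, hormones and secreted proteins among them, 8 lay above 0 and 3 below, with TTR at 0.34 and MB at 0.28. Of 11 photoreceptor and lens genes, 6 lay above 0 and 5 below, with GNAT1 at -0.29, CRYGC at -0.28 and the brightest, CRYBB1, at 0.14. Of 10 housekeeping genes, 1 lay above 0 and 9 below, with TBP and TUBB at -0.20 and the brightest, GAPDH, at -0.01. None of these genes passed the adjusted threshold of limma. In limma 5.09% of all genes had an unadjusted p under 0.05, beside 2 of the 24 taste receptors and 5 of the 67 keratin-associated genes. Such a p was also found for TTR, 1 of 11 in its list, and for CRYGC, 1 of 11 in its list. It was found for 0 of the 11 trace amine and vomeronasal receptors and 0 of the 10 housekeeping genes.

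The pseudogene OR2W5P, left out of the family, gave 4.60, 4.62 and 4.43 in the knockdown, against 4.22, 4.39 and 4.65 in the wild type. HSPA8, a chaperone on the receptor trafficking list, gave 9.61, 7.86 and 8.11 in the knockdown, against 9.69, 8.30 and 8.13 in the wild type, so replicate 1 was the highest array of each group. REEP1, on the same list, gave 5.89, 5.36 and 5.26 against 6.28, 5.50 and 5.25 in the wild type, and the tubulin gene TUBB 8.79, 7.47 and 7.70 against 8.75, 7.95 and 7.85 in the wild type, again highest in replicate 1 of each group.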
